A study of Mus musculus with 8 samples.

Results

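Expression of 10 genes of the tumor necrosis factor (TNF) superfamily was followed in primary murine microglia, out of 52636 gene identifiers counted. They are taken by name as members of this family. No measured value enters that rule, but the names were chosen with earlier results of these data known. The ligands were *Tnf*, *Lta*, *Ltb*, *Tnfsf9* and *Tnfsf10*, and the receptors were *Tnfrsf1a*, *Tnfrsf1b*, *Tnfrsf22*, *Tnfrsf23* and *Fas*. RNA was sequenced in 4 vehicle and 4 LPS libraries of C57BL/6 WT microglia, labeled as biological replicates and exposed for 24 h to vehicle or to 5 µg/ml lipopolysaccharide (LPS), the bacterial cell wall component sensed by Toll-like receptor 4. All cells were grown in DMEM with fetal bovine serum and recombinant murine CSF-1. The microglia were shaken off mixed glial cultures of neonatal pups, which the study's methods name as C57BL/6N, so they model neither adult microglia nor cells within brain tissue. The comparison asks how this family differs between resting and LPS-reactive microglia.

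TNF family ligands are mostly made as membrane proteins that assemble in trimers and either act on touching cells or are cut free. Their receptors fall broadly into those with an intracellular death domain, such as TNFR1 (*Tnfrsf1a*) and Fas, which can start both NF-κB signaling and cell death, and those that bind TRAF adaptors directly, such as TNFR2 (*Tnfrsf1b*). Microglia are a major source of TNF in the inflamed brain, and several genes of this family are themselves known targets of NF-κB.

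Library totals ranged from 20071921 to 30604447 counts. Levels are given as counts per 1000000 (CPM) of the library size scaled by edgeR's TMM factors, which were 1.208 to 1.32 in vehicle and 0.701 to 0.8331 in LPS libraries. Without these factors the median log2 fold change of all genes shifted by -0.68. LPS replicate 3 correlated with the other LPS libraries at r = 0.9523 to 0.9679, whereas those 3 correlated with each other at 0.9781 to 0.9963. It also had the largest total and the lowest scaling factor, and several of the values that rest on it are given with and without it. The summed level of 10 microglia markers was 9919 to 11090 CPM in vehicle and 2089 to 2498 CPM in LPS libraries, with 8 of the 10 lower and none higher. Genes defining T cells (*Cd3e*, *Cd3d*, *Cd3g*) and NK cells (*Ncr1*, *Nkg7*, *Klrd1*) had 0 counts in all 8 libraries. Summed markers of astrocytes were 17.6 to 41.4 CPM in vehicle and 38.6 to 118 CPM in LPS libraries, those of endothelial cells 31 to 73.5 and 163 to 254 CPM, those of oligodendrocytes 79.3 to 114 and 18.3 to 23 CPM, and those of their precursors 14.8 to 50.7 and 0.466 to 7.24 CPM. T cell markers summed to 3.98 to 7.95 CPM in vehicle and 1.31 to 2.15 CPM in LPS libraries, B cell markers to 0.568 to 1.09 and 0.757 to 1.62 CPM, neutrophil markers to 0.0317 to 0.107 and 0.325 to 2.99 CPM, and NK cell markers to at most 0.127 CPM in any library. Of the genes tested in these lists, 3 of 3 endothelial and 1 of 1 B cell markers were higher, 1 astrocyte marker was higher and 3 of 6 were lower, 3 of 4 precursor, 1 of 3 oligodendrocyte and 1 of 2 T cell markers were lower, and no NK cell or neutrophil marker passed the filter. *Cldn5* of the endothelial list, *Mobp* of the oligodendrocyte list and *Mpo* of the neutrophil list had 0 counts. The part of these cells in the results was not tested. In such bulk RNA, fewer cells of a type and less RNA per cell cannot be told apart.

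Of the 10 genes, 8 were higher in LPS-treated microglia, *Tnfrsf22* was lower and *Ltb* was too low to be tested. The threshold was an adjusted p of 0.05 in edgeR's quasi-likelihood test. Of the 13847 genes tested, 64.1% passed it, made up of 30.3% of all genes tested that were higher and 33.8% that were lower. *Lta* passed the filter on low counts only through the LPS libraries, so its call follows in part from the filter. The 8 genes that rose had no overlap between vehicle and LPS libraries, which held for 28.7% of all genes tested with LPS above vehicle and for 31.5% with LPS below. The median log2 fold change of the 9 tested genes was 3.25, beside -0.11 for all genes tested. It was -1.55 for the tested other ligands of the family and 0.09 for the tested other receptors. Several of these other genes passed the filter only because of the group where they are high, so both medians depend in part on the filter. As the 10 genes were chosen with earlier results known, their count and median are a description only.

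**Figure D1:**
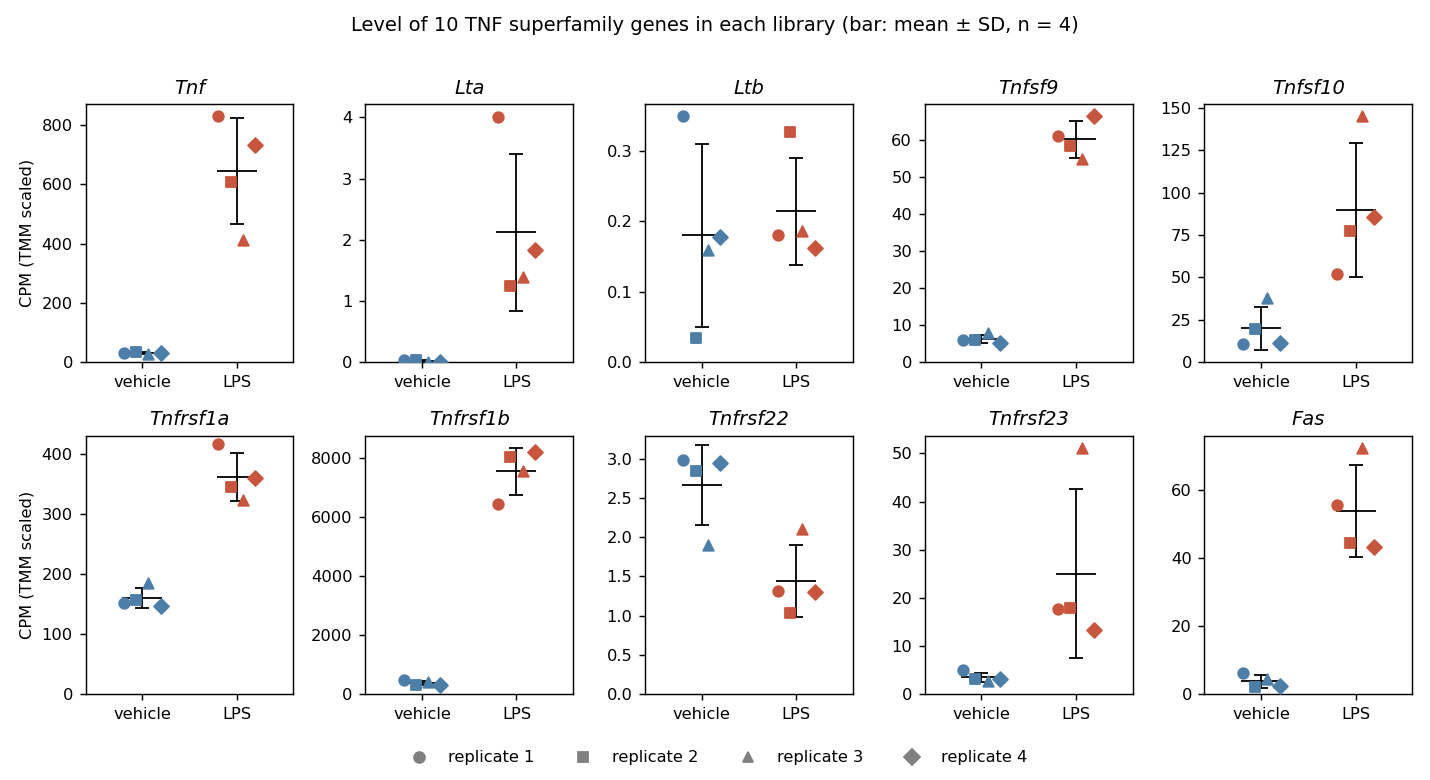
Level of each of the 10 genes (y axis, CPM scaled by TMM, from 0, own scale per gene) in the 4 vehicle (blue) and 4 LPS (red) libraries, with the mean and SD as bars and the replicate number as symbol. Groups are apart in all panels except those of *Ltb* and *Tnfrsf22*, and the triangle of LPS replicate 3 stands at 51.2 CPM for *Tnfrsf23* above the other 3 LPS libraries.

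The first group of ligands was *Tnf*, *Lta* and *Ltb*, neighbors in the major histocompatibility region of chromosome 17. *Tnf* encodes the founding cytokine of the family, *Lta* encodes lymphotoxin alpha, which as a homotrimer binds the TNF receptors, and *Ltb* encodes lymphotoxin beta, the membrane partner that directs lymphotoxin to the receptor encoded by *Ltbr*. In GRCm38 *Tnf* spans chr17:35199381-35202007 on the minus strand, *Lta* chr17:35203165-35205351 on the minus strand, and *Ltb* chr17:35194439-35196320 on the plus strand. The 250 bases upstream of each RefSeq start (GRCm38.p6) are shown because the 3 genes lie side by side yet had very different levels. Capitals mark TATAAA for *Tnf* and *Lta* and, for *Ltb*, a match to the NF-κB consensus on the other strand.
Tnf (chr17:35202008-35202257, minus strand): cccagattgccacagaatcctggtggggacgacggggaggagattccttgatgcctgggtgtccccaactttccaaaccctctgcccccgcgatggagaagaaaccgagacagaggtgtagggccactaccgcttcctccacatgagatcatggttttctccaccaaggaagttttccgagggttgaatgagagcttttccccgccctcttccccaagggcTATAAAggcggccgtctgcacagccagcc
Lta (chr17:35205352-35205601, minus strand): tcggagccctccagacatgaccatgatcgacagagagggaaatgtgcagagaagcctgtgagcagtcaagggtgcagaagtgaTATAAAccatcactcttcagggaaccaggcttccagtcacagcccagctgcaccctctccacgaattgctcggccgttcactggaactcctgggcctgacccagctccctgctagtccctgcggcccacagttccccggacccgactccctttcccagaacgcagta
Ltb (chr17:35194257-35194506, plus strand): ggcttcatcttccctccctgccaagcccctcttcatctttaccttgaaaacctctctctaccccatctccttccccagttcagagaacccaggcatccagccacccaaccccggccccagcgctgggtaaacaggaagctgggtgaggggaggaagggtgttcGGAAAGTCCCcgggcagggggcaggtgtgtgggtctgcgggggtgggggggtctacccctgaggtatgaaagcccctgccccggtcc
TATAAA lay 29 to 24 bases upstream of the *Tnf* start and 167 to 162 bases upstream of the *Lta* start. It was present on the gene strand in 7.59% of 32851 windows of the same length. The NF-κB consensus match of *Ltb* lay 87 to 78 bases upstream, and 7.25% of windows held that consensus on either strand. Such matches describe letters within these windows and are not evidence of binding. RefSeq promoter windows were used for 8 of the 10 genes, without *Tnfsf9* and *Tnfrsf22*. Among the 8, the NF-κB consensus occurred for *Ltb* alone and TGANTCA, the AP-1 motif (both strands, 6.75% of windows), for *Fas* alone, 211 to 205 bases upstream. Only exact matches in these windows were searched, for NF-κB to GGGRNNYYCC (R is A or G, Y is C or T, N any base). Looser or more distant sites were not searched, so a missing match does not show that a gene lacks NF-κB sites.

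*Tnf* (ENSMUSG00000024401) stood at 32.9, 36.1, 28.7 and 30.7 CPM in vehicle replicates 1 to 4 and at 829, 607, 412 and 731 CPM in LPS replicates 1 to 4. The lowest LPS library lay far above the highest vehicle library, although the LPS libraries varied 2.01-fold among themselves. The means were 32.1 ± 3.17 and 645 ± 180 CPM (SD, n = 4), a 20.1-fold rise (log2 fold change 4.33 ± 0.23 SE, edgeR adjusted p = 5.06e-07).

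*Lta* (ENSMUSG00000024402) was nearly undetected at rest, with 1, 1, 0 and 0 counts in the vehicle libraries. In LPS libraries it reached 67, 23, 30 and 34 counts, or 4.01, 1.25, 1.4 and 1.84 CPM. Its summed level was 120 times that of vehicle, with a counting interval (95%) of 32.7 to 1002 because the vehicle total was 2 counts. The fitted log2 fold change of 6.57 ± 0.72 (edgeR adjusted p = 3.81e-05) depends on the prior count. Even after LPS *Lta* was a low transcript, above only 25.4% of tested genes.

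*Ltb* (ENSMUSG00000024399) gave 10, 1, 5 and 5 counts in vehicle and 3, 6, 4 and 3 counts in LPS libraries. In CPM all 4 LPS libraries lay within the range of the vehicle libraries, and the summed level in LPS was 1.19 times that in vehicle (counting interval 0.581 to 2.39). A difference was not detectable at this depth. Fitted without the filter, its log2 fold change was 0.21 to 0.30 with an adjusted p of 0.78 to 0.83 in edgeR and DESeq2. The receptor for lymphotoxin beta, *Ltbr*, stood at 62.6 ± 3.60 CPM in vehicle and 99.8 ± 16.3 CPM in LPS libraries (log2 fold change 0.67 ± 0.13, edgeR adjusted p = 0.00128). That rise depended on the scaling, since it was 0.01 with library totals alone.

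Within each library, *Lta* and *Ltb* were set against *Tnf* as log2 ratios of counts per kb of exon with 0.5 added to each count. The *Lta* to *Tnf* ratio was -9.05, -9.20, -10.58 and -10.51 in vehicle and -7.44, -8.65, -7.93 and -8.37 in LPS libraries. The means differed by 1.74 on the log2 scale, but the vehicle values rest on 2 counts in all and are set largely by the added 0.5, and *Lta* was kept by the filter through the LPS libraries alone, so no gain on *Tnf* can be read from this ratio. The *Ltb* to *Tnf* ratio was -6.37, -9.33, -7.25 and -7.19 in vehicle and -11.84, -10.63, -10.83 and -11.80 in LPS libraries, a change of -3.74. The *Ltb* to *Tnf* ratio did not overlap between groups and gave p = 0.0286 in an exact two-sided permutation test, the smallest p among the 70 possible divisions of 4 against 4 (adjusted over 4 ratios, 0.0286). Since no difference in *Ltb* was detectable, this separation restates the rise of *Tnf* and adds no separate result. Per kb, *Tnf* had 186 times the counts of *Ltb* at rest and 2478 times after LPS, with *Ltb* at 1 to 10 counts per library.

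The genes around this cluster were compared as well. Among 19 annotated genes starting within 60 kb of the *Tnf* start, 10 were tested. Beside 30.3% higher and 33.8% lower of all genes tested, 3 of these 10 were higher, 2 lower and 5 not called. Besides *Tnf* and *Lta*, the higher gene was *Lst1*, a leukocyte transmembrane adaptor gene, which went from 38.8 ± 15.8 to 116 ± 16.5 CPM (log2 fold change 1.58 ± 0.25, edgeR adjusted p = 3.84e-04). *Gm17705* (-1.82 ± 0.28) and *Atp6v1g2*, a vacuolar proton pump subunit (-1.19 ± 0.31), were lower. *Aif1*, which encodes the microglial marker Iba1 and starts 25.9 kb from *Tnf*, was at 126 ± 41.3 CPM in vehicle and 126 ± 24.0 CPM in LPS libraries (log2 fold change 0.00 ± 0.22). The values for *Prrc2a*, *Nfkbil1* and *Ddx39b* were also small (0.06, 0.24 and 0.09, none called).

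**Figure D2:**
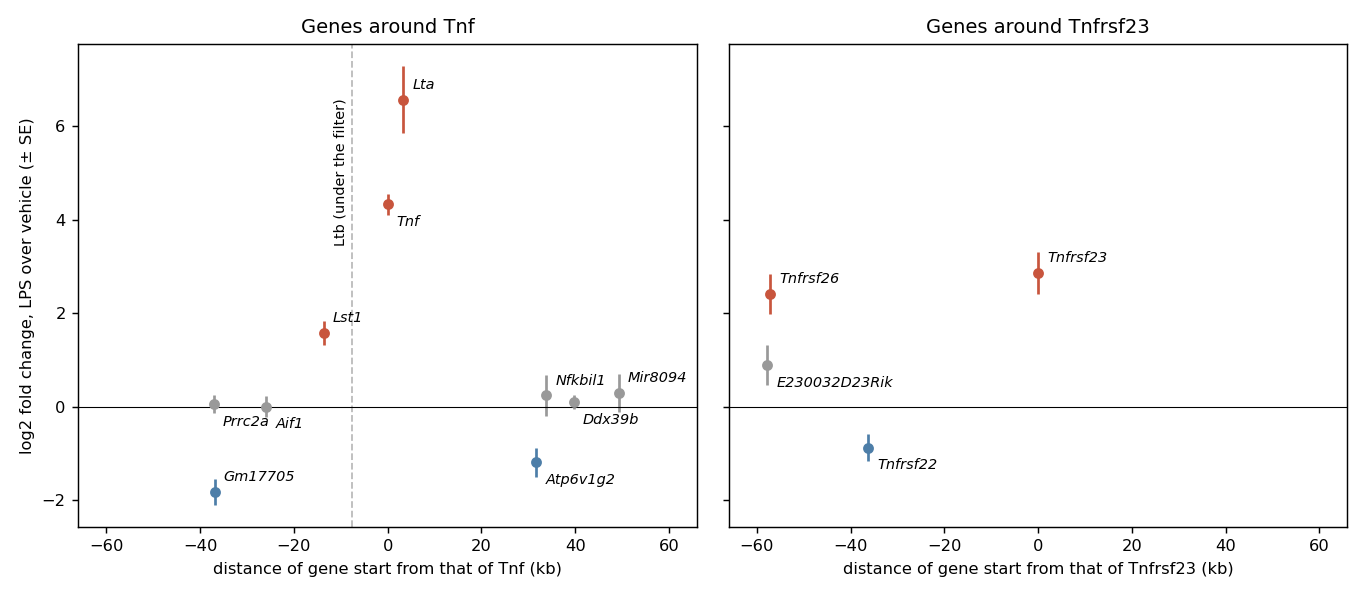
Log2 fold change, LPS over vehicle, with SE (y axis) of tested genes against the distance of their start from that of *Tnf* (left) or *Tnfrsf23* (right) in kb (x axis); red marks higher, blue lower and gray not called. *Lta* (6.57) and *Tnf* (4.33) stand above neighbors such as *Aif1* at 0.00, while *Tnfrsf22* (-0.88) lies below 0 between *Tnfrsf26* (2.41) and *Tnfrsf23* (2.86).

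The other ligands were *Tnfsf9*, which encodes the 4-1BB ligand, a costimulator of T cells, and *Tnfsf10*, which encodes TRAIL, a ligand that can trigger apoptosis through death receptors. *Tnfsf9* (chr17:57105325-57107757, plus strand) was measured at 6.02, 6.05, 7.96 and 5.25 CPM in vehicle and 60.9, 58.3, 54.7 and 66.4 CPM in LPS libraries. Of the 8 genes that rose it was the most even across LPS libraries, which differed 1.22-fold. The rise was 9.48-fold (log2 fold change 3.25 ± 0.15, edgeR adjusted p = 2.24e-07). Of its exon bases 14.9% overlap the opposite-strand gene *Gm11110*, which had 92 counts in vehicle and 559 in LPS libraries, against 746 and 4487 for *Tnfsf9*. Whether counting used the strand is not stated, so reads in that overlap cannot be assigned to either gene with certainty.

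The receptor for the 4-1BB ligand, 4-1BB itself (*Tnfrsf9*), had 1, 2, 0 and 0 counts in vehicle and 59, 129, 320 and 70 counts in LPS libraries. Its summed level in LPS was 301 times that in vehicle (counting interval 102 to 1464), and it too passed the filter only through the LPS libraries. Ligand and receptor of this pair were thus both detected after LPS, the receptor at 7.32 ± 5.32 CPM. The fitted log2 fold change was 7.90 ± 0.80 (edgeR adjusted p = 2.4e-05), 7.29 without LPS replicate 3 and 8.78 without vehicle replicate 2.

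*Tnfsf10* (chr3:27317028-27342427, plus strand) varied more within each group than *Tnf* and *Tnfsf9*, 3.53-fold in vehicle and 2.78-fold in LPS libraries. It read 10.8, 19.8, 38.1 and 11.4 CPM in vehicle and 52.1, 77.1, 145 and 85.4 CPM in LPS libraries. Replicate 3 was the highest in both groups, and the lowest LPS library lay above the highest vehicle library. The means were 20 ± 12.7 and 89.9 ± 39.4 CPM, a 4.49-fold rise (log2 fold change 2.17 ± 0.44, edgeR adjusted p = 0.00192). Taken within same-numbered pairs, the log2 differences were 2.22, 1.93, 1.92 and 2.85. The log2 fold change was 1.84 without LPS replicate 3 and 2.73 without vehicle replicate 3, and the gene was called in both fits.

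The TNF receptors differed from each other both in level and in response. *Tnfrsf1a* (chr6:125349362-125362484, plus strand), encoding the broadly expressed death domain receptor TNFR1, was at 152, 157, 185 and 146 CPM in vehicle and at 417, 346, 323 and 360 CPM in LPS libraries. The groups did not overlap, and the rise from 160 ± 17.1 to 362 ± 39.8 CPM was 2.25-fold (log2 fold change 1.17 ± 0.12, edgeR adjusted p = 3.04e-05). With library totals alone the value was 0.51, still called.

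*Tnfrsf1b* (chr4:145213463-145246870, minus strand) encodes TNFR2, which lacks a death domain, signals through TRAF2 and is largely limited to immune and endothelial cells. It stood at 474, 319, 392 and 301 CPM in vehicle and at 6442, 8040, 7564 and 8201 CPM in LPS libraries. This placed it above 99.9% of tested genes after LPS and above 98.1% at rest. The rise from 371 ± 78.8 to 7562 ± 794 CPM was 20.4-fold (log2 fold change 4.35 ± 0.21, edgeR adjusted p = 3.25e-07).

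Within each library, the log2 ratio of *Tnfrsf1b* to *Tnfrsf1a* per kb of exon was 1.08, 0.46, 0.52 and 0.48 in vehicle and 3.39, 3.98, 3.99 and 3.95 in LPS libraries. This ratio does not depend on how libraries are scaled. *Tnfrsf1b* counts per kb exceeded those of *Tnfrsf1a* 1.55-fold at rest and 14.2-fold after LPS, a difference of 3.19 on the log2 scale (exact two-sided permutation p = 0.0286, the smallest possible, adjusted p = 0.0286). The same-numbered pairs differed by 2.31 to 3.52. Since the groups did not overlap, any pairing of libraries would move in this direction, so the pairs add no separate result. Replicate 1 had the highest ratio of the vehicle and the lowest of the LPS libraries.

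**Figure D3:**
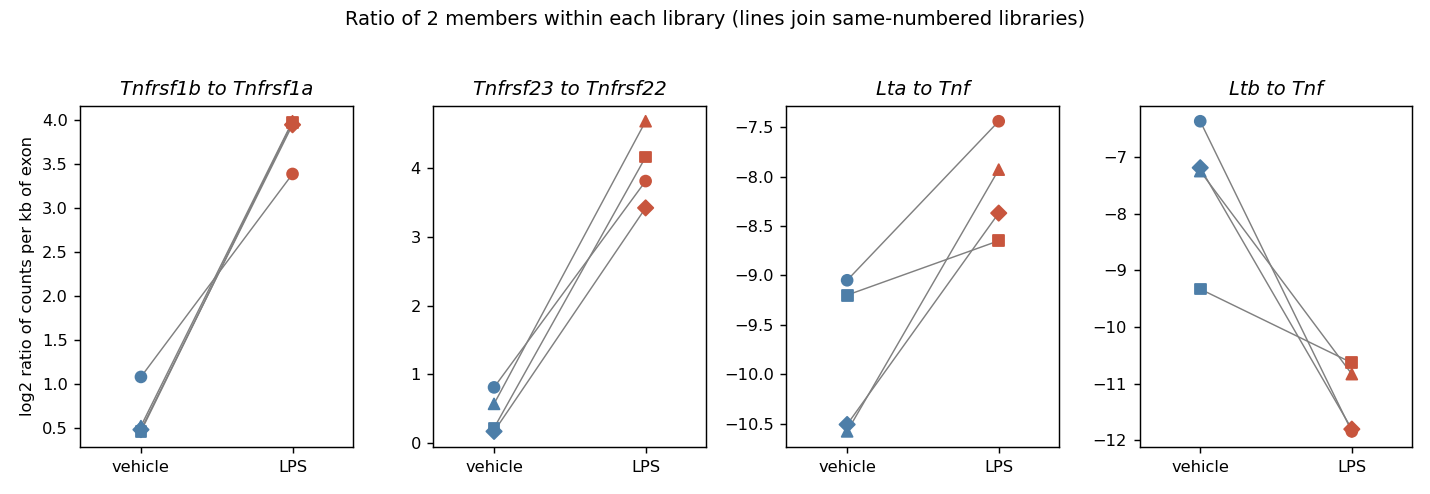
Log2 ratio of counts per kb of exon between the genes named above each panel (y axis, own scale) in vehicle (blue) and LPS (red) libraries, with lines joining same-numbered libraries; circle, square, triangle and diamond are replicates 1 to 4. In each panel the groups do not overlap, and *Tnfrsf1b* over *Tnfrsf1a* goes from a mean of 0.64 to 3.83.

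*Fas* (ENSMUSG00000024778, chr19:34290666-34327772, plus strand), encoding the death receptor for Fas ligand, was at 6.27, 1.90, 4.31 and 2.31 CPM in vehicle and at 55.5, 44.3, 72.4 and 43.3 CPM in LPS libraries. The vehicle libraries differed 3.29-fold and the LPS libraries 1.67-fold, with no overlap between groups. The rise from 3.70 ± 2.01 to 53.9 ± 13.5 CPM was 14.5-fold (log2 fold change 3.86 ± 0.37, edgeR adjusted p = 1.64e-05). Its ligand gene *Fasl* had 0 counts in all 8 libraries, which allows a level of up to 0.0952 to 0.18 CPM, depending on the library.

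The remaining receptors, *Tnfrsf22* and *Tnfrsf23*, encode mouse decoy receptors that bind TRAIL without a death domain. Both lie on the minus strand of chromosome 7, *Tnfrsf22* (ENSMUSG00000010751) at chr7:143634806-143649661 and *Tnfrsf23* (ENSMUSG00000037613) at chr7:143665809-143685872. Their GENCODE vM21 coding sequences, of 597 and 531 bases, were identical at 90.6% of 531 aligned bases. The read length of 50 bases used here is that of the study's methods. The longest run they share, 102 bases at coding positions 421 to 522 of *Tnfrsf22* and 391 to 492 of *Tnfrsf23*, is shown because a 50-base read lying wholly within it fits both genes.
Shared run of Tnfrsf22 and Tnfrsf23: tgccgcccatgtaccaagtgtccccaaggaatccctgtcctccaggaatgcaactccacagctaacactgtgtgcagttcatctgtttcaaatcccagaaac
Only uniquely aligned reads were counted, and such a read has no unique position. Of all 50-base windows of their transcripts, 27.4% for *Tnfrsf22* and 18.0% for *Tnfrsf23* also occur in another gene, so both levels are uncertain.

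Despite this similarity the pair went in opposite directions. *Tnfrsf23* was at 4.90, 3.11, 2.66 and 3.12 CPM in vehicle and at 17.7, 17.8, 51.2 and 13.3 CPM in LPS libraries. LPS replicate 3 was far above the other LPS libraries, which in turn were all above vehicle. The rise from 3.45 ± 0.990 to 25.0 ± 17.6 CPM was 7.25-fold (log2 fold change 2.86 ± 0.44, edgeR adjusted p = 3.13e-04), and the log2 fold change was 2.24 (adjusted p = 4.35e-05) without LPS replicate 3.

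*Tnfrsf22* was at 2.98, 2.84, 1.90 and 2.95 CPM in vehicle and at 1.32, 1.03, 2.10 and 1.30 CPM in LPS libraries. Replicate 3 was the lowest vehicle and the highest LPS library, so the groups overlapped. Levels fell from 2.67 ± 0.512 to 1.44 ± 0.460 CPM, 1.84-fold lower (log2 fold change -0.88 ± 0.29, edgeR adjusted p = 0.0214). The call was lost when vehicle replicate 1, 2 or 4 or LPS replicate 2 or 4 was left out (adjusted p = 0.0506 to 0.0649). With both libraries numbered 3 left out it was -1.18 (adjusted p = 0.00192). Same-numbered pairs differed by -0.94, -1.12, 0.11 and -0.94.

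The log2 ratio of *Tnfrsf23* to *Tnfrsf22* was 0.81, 0.22, 0.57 and 0.17 in vehicle and 3.81, 4.16, 4.68 and 3.42 in LPS libraries. The genes were thus nearly level at rest and 16.2-fold apart after LPS, a difference of 3.57 (exact two-sided permutation p = 0.0286, the smallest possible, adjusted p = 0.0286). Next to them, *Tnfrsf26*, a related receptor gene that is less similar (60.1% and 56.6% of aligned coding bases) and shares no 50-base window with either coding sequence, went from 12.2 ± 3.17 to 65.0 ± 45.5 CPM (log2 fold change 2.41 ± 0.42, edgeR adjusted p = 6.75e-04). LPS replicate 3 was again the highest, at 133 CPM against 37.1 to 49.6 CPM, and the log2 fold change without it was 1.80. The TRAIL death receptor *Tnfrsf10b* was at 0.801 ± 0.0913 and 0.786 ± 0.350 CPM (log2 fold change -0.03 ± 0.36, not called).

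Compared per kb of exon, the 10 genes spanned a wide range. At rest the order of mean levels in CPM per kb was *Tnfrsf1b* (97.3), *Tnfrsf1a* (61.9), *Tnf* (19.6), *Tnfsf9* (4.90), *Tnfsf10* (3.8), *Fas* (1.79), *Tnfrsf23* (0.871), *Tnfrsf22* (0.632), *Ltb* (0.119) and *Lta* (0.0126). The ranges of *Tnfsf9* and *Tnfsf10*, *Tnfsf10* and *Fas*, *Fas* and *Tnfrsf23*, *Tnfrsf23* and *Tnfrsf22*, and *Ltb* and *Lta* overlapped. After LPS the order was *Tnfrsf1b* (1981), *Tnf* (393), *Tnfrsf1a* (140), *Tnfsf9* (46.6), *Fas* (26.1), *Tnfsf10* (17.1), *Tnfrsf23* (6.31), *Lta* (1.54), *Tnfrsf22* (0.341) and *Ltb* (0.141). Here the neighbors that overlapped in range were *Fas* with *Tnfsf10* and *Tnfsf10* with *Tnfrsf23*. In all 4 LPS libraries *Tnf* was above *Tnfrsf1a*, and in all 4 vehicle libraries it was below.

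**Figure D4:**
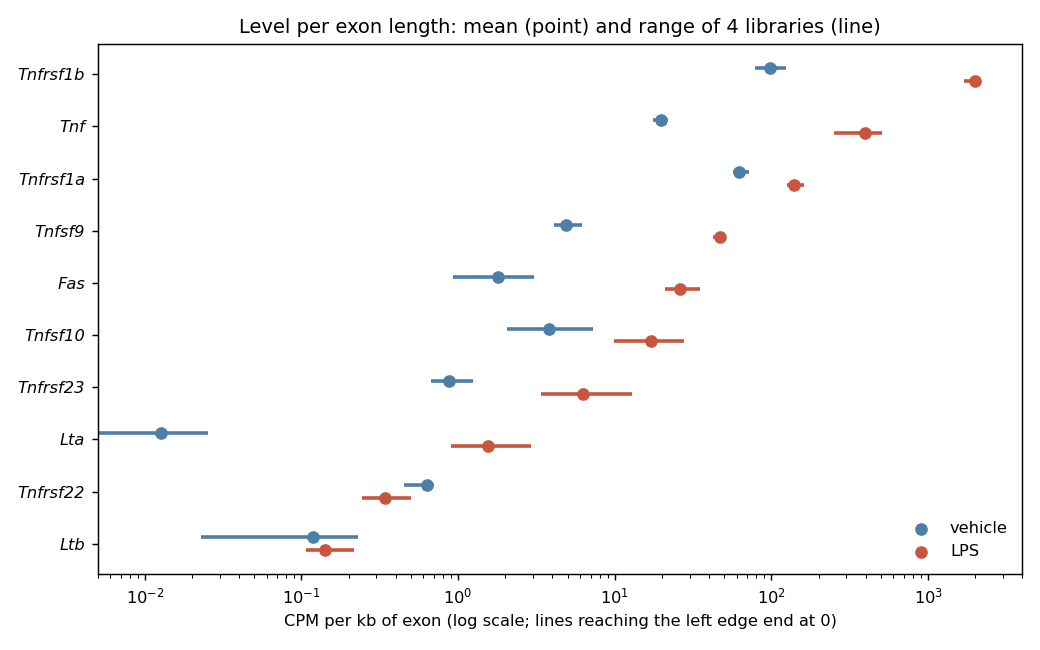
Mean level (point) and range over 4 libraries (line) of each gene in CPM per kb of exon (x axis, log scale) in vehicle (blue) and LPS (red) libraries, ordered by LPS level. *Tnfrsf1b* is highest in both groups and *Tnfrsf22* is the only gene whose LPS mean lies below its vehicle mean.

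The rest of the family gave mixed results. Of 13 other TNF superfamily ligands, 6 were tested, of which 1 was higher, 3 were lower and 2 were not called. For all genes tested the shares were 30.3% higher and 33.8% lower. *Tnfsf15*, which encodes TL1A, rose from 0.420, 0.208, 2.28 and 0.213 CPM to 78.3, 45.6, 116 and 47.2 CPM (log2 fold change 6.48 ± 0.70, edgeR adjusted p = 3.4e-05), or 8.03 without vehicle replicate 3. The filter asks for its minimum in 4 libraries, and only 2 vehicle libraries of *Tnfsf15* reached it, so the gene was kept because of its LPS level and its call follows in part from the filter. *Tnfsf12*, encoding TWEAK, fell from 16.0 ± 4.01 to 2.39 ± 0.673 CPM (-2.73 ± 0.24, adjusted p = 1.07e-05). *Tnfsf13b*, encoding the B cell survival factor BAFF, fell from 3.43 ± 0.376 to 0.458 ± 0.473 CPM (-2.84 ± 0.52, adjusted p = 9.72e-04), or -3.90 without LPS replicate 3. It too was kept because of the group where it is high, as 4 vehicle libraries and 1 LPS library reached the minimum. *Tnfsf13*, encoding the related factor APRIL, had 73 counts in vehicle and 2 in LPS libraries, 23.4 times lower (counting interval 6.24 to 197), and passed the filter only through the vehicle libraries.

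The counts of *Tnfsf12* and *Tnfsf13* are uncertain, as 48.3% and 60.0% of their exon bases are shared with the read-through gene *Tnfsfm13*. *Tnfsf8*, encoding CD30 ligand, was at 0.140, 0.484, 3.84 and 0.320 CPM in vehicle and 0.958, 0.653, 6.39 and 0.974 CPM in LPS libraries. It reached the minimum of the filter in 2 vehicle and 4 LPS libraries, so it was kept because of its LPS level. Its log2 fold change of 0.91 ± 1.03 was not called (edgeR adjusted p = 0.46), but with replicate number as a block it was 1.19 (adjusted p = 0.0298), and it was 2.86 without vehicle replicate 3 and -0.48 without LPS replicate 3. *Tnfsf14*, encoding LIGHT, was not called (-0.37 ± 0.42), but under library totals alone it was at -1.04 (adjusted p = 0.0393), which made 4 other ligands lower in place of 3. *Cd40lg* and *Cd70*, like *Fasl*, had 0 counts in every library.

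Of 23 other receptors, 14 were tested. Beside 30.3% higher and 33.8% lower of all genes tested, 6 of these 14 were higher, 3 lower and 5 not called. Under library totals alone 4 of the 14 were higher and 6 lower. *Cd40*, encoding a costimulatory receptor of antigen-presenting cells, rose from 7.90 ± 4.83 to 158 ± 44.1 CPM (log2 fold change 4.31 ± 0.40, edgeR adjusted p = 1.31e-05). *Tnfrsf8*, encoding CD30, rose from 0.710 ± 0.317 to 26.3 ± 4.63 CPM (5.20 ± 0.32, adjusted p = 1.02e-06), with 3 vehicle and 4 LPS libraries at the minimum of the filter, which it thus passed because of its LPS level. *Tnfrsf14*, encoding the LIGHT receptor HVEM, rose from 15.1 ± 4.45 to 26.1 ± 4.09 CPM (0.79 ± 0.21, adjusted p = 0.00889), a call lost under library totals. With *Tnfrsf9*, *Tnfrsf26* and *Ltbr* these were the 6 higher receptors.

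The lower receptors were *Tnfrsf13b*, *Tnfrsf21* and *Ngfr*. *Tnfrsf13b*, encoding TACI, a receptor for BAFF and APRIL, fell from 26.7 ± 1.46 to 9.68 ± 2.19 CPM (-1.46 ± 0.16, edgeR adjusted p = 3.99e-05). *Tnfrsf21*, encoding death receptor 6, fell from 37.9 ± 9.52 to 19.5 ± 4.95 CPM (-0.96 ± 0.22, adjusted p = 0.00331). *Ngfr*, encoding the p75 neurotrophin receptor, had overlapping groups (1.18 ± 0.758 and 0.259 ± 0.316 CPM, -2.23 ± 0.75, adjusted p = 0.0254), and the call was lost without vehicle replicate 1 or LPS replicate 2, 3 or 4 (adjusted p = 0.0576 to 0.0968), while without LPS replicate 1 it was -3.44. Only 1 LPS library of *Ngfr* reached the minimum of the filter, against 4 vehicle libraries. *Tnfrsf11a*, encoding RANK, was not called at 0.20 ± 0.14 and turned to -0.48 under library totals. *Tnfrsf12a* (-0.35), *Eda2r* (-0.48) and *Relt* (-0.27) were not called.

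Among 21 adaptors and kinases that act below the receptors, all tested, 10 were higher, 2 lower and 9 not called, with a median log2 fold change of 0.31. The shares over all genes tested were 30.3% higher and 33.8% lower. The split of the adaptors and kinases became 6 higher and 12 lower under library totals and 7 higher and 3 lower under upper quartile scaling. *Traf1*, encoding an adaptor that joins TRAF2 on TNFR2, rose from 3.08, 1.35, 2.47 and 1.14 CPM to 246, 366, 373 and 391 CPM (log2 fold change 7.41 ± 0.36, edgeR adjusted p = 3.21e-07). *Cflar*, encoding the caspase 8 inhibitor cFLIP, rose from 142 ± 24.7 to 1077 ± 296 CPM (2.92 ± 0.22, adjusted p = 3.63e-06), and *Birc3*, encoding the ubiquitin ligase cIAP2, from 53.1 ± 15.8 to 273 ± 34.2 CPM (2.36 ± 0.21, adjusted p = 1.15e-05). *Map3k7*, encoding the kinase TAK1, was lower by a small amount (-0.46 ± 0.09, adjusted p = 0.0017). The death adaptor gene *Fadd* (-0.40 ± 0.14, adjusted p = 0.0341) lost its call with DESeq2 (adjusted p = 0.07), with RLE size factors, without the filter, with both libraries numbered 3 left out, and without LPS replicate 1 or 2 or any 1 vehicle library.

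Of 10 genes that restrain TNF receptor signaling, 7 were higher, none was lower and 3 were not called, with a median log2 fold change of 1.43. Over all genes tested, 30.3% were higher and 33.8% lower. Under library totals 6 of the restraints were higher and 2 lower. *Tnfaip3*, encoding the ubiquitin-editing enzyme A20, rose from 58.7, 47.1, 49.5 and 51.4 CPM to 1225, 1334, 1157 and 1431 CPM (log2 fold change 4.64 ± 0.15, edgeR adjusted p = 3.75e-08). The A20-binding protein genes *Tnip3* (3.62 ± 0.22, adjusted p = 1.17e-06) and *Tnip1* (3.57 ± 0.22, adjusted p = 1.09e-06) rose as well.

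Release of TNF and its receptors from the membrane depends on the protease ADAM17 and on iRhom proteins that carry it to the surface. Of 6 such genes, 2 were higher, 3 lower and 1 was not called, beside 30.3% higher and 33.8% lower of all genes tested. Under library totals 1 of the 6 genes was higher and 4 were lower. *Adam17* fell from 424 ± 31.9 to 284 ± 23.3 CPM (log2 fold change -0.58 ± 0.11, edgeR adjusted p = 0.00128) and *Adam10*, a related protease gene, from 360 ± 23.5 to 180 ± 23.6 CPM (-1.0 ± 0.12, adjusted p = 6.61e-05). The iRhom genes went opposite ways, with *Rhbdf2* (iRhom2) at 67.0, 58.4, 77.2 and 50.7 CPM in vehicle and 417, 404, 224 and 416 CPM in LPS libraries (2.53 ± 0.23, adjusted p = 1.03e-05) and *Rhbdf1* (iRhom1) falling from 5.15 ± 0.837 to 1.24 ± 0.786 CPM (-2.07 ± 0.41, adjusted p = 0.00145). For *Rhbdf1*, 4 vehicle and 3 LPS libraries reached the minimum of the filter, which it thus passed because of its vehicle level. *Frmd8*, encoding an iRhom-binding protein, was higher (0.65 ± 0.13, adjusted p = 0.00136), but its value was -0.02 under library totals. *Timp3*, an inhibitor of ADAM17, was not called (-1.03 ± 0.61, adjusted p = 0.164), but was with replicate number as a block (adjusted p = 0.00216).

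**Figure D5:**
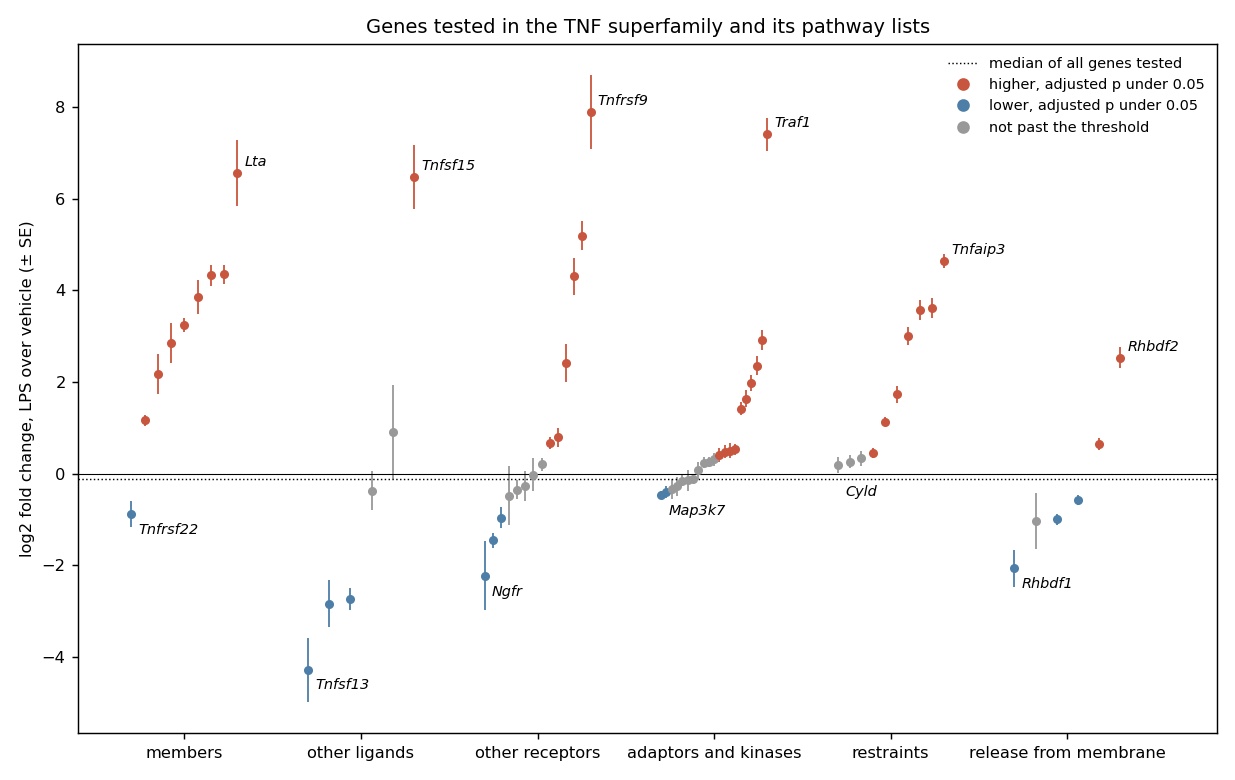
Log2 fold change, LPS over vehicle, with SE (y axis) of every tested gene in 6 lists (x axis), colored by edgeR call; the dotted line is the median of all genes tested (-0.11), and the lowest and highest gene of a list are named. The members range from -0.88 (*Tnfrsf22*) to 6.57 (*Lta*), and the restraints lie at 0.19 (*Cyld*) or above.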

How the data were processed

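Total RNA of the microglia was isolated, and 8 libraries prepared from it were sequenced. The study's methods give single-end 50-base reads. The authors deposited raw counts per Ensembl gene, made with HTSeqGenie from uniquely aligned reads after GSNAP alignment to GRCm38. Library kit and sequencer differ between the labels and the study's methods, and neither the annotation release nor whether counting used the strand is given in the sources used here. All 8 columns were mapped by title, and 0.00512% of counts lay in identifiers without a symbol. Coordinates, exon lengths and coding sequences were taken from GENCODE vM21 and promoters from RefSeq.

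LPS was compared with vehicle by edgeR 4.0.16 in R 4.3.3 (TMM, genes kept by filterByExpr at 10 counts per library and 15 in total, two-sided quasi-likelihood test, Benjamini-Hochberg adjustment over 13847 genes, threshold 0.05). CPM per kb is CPM divided by the length of merged exons. Ratios were compared by exact permutation tests in Python 3.11.15 (scipy 1.17.1, numpy 2.4.6, pandas 2.3.3), with plots by matplotlib 3.10.9. Counting intervals of summed counts are exact at 95% and, like the floor of 3 counts per library, cover counting error only. The fits were tested on simulated data in which few genes changed, as many up as down. That test cannot speak to the scaling here, where 64.1% of genes tested were called.

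Libraries of equal number share no stated culture or day. Over 8382 genes their deviations from the group means correlated at r = 0.363, 0.179, 0.177 and 0.110 for numbers 1 to 4, all above 0.1. Pairs by number were used only in alternatives, the replicate block and the sign flips within pairs. The main fit and the permutation tests took the libraries as unpaired. Unequal numbers also reached 0.141 (vehicle 2 with LPS 4) and 0.122 (vehicle 4 with LPS 2), above the 0.110 of number 4, so that pair is not set apart from these. No 2 libraries agreed within sampling noise (chi-square per degree of freedom 6.76 or more). Where nothing states separate cultures, p-values measure only the spread between these libraries.

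The 10 genes and the gene lists were chosen with earlier results of these data known. All tested genes of the ligand and receptor lists were named, and of the other lists up to 3 called genes in each direction. Genes outside this rule, such as *Timp3* and the chromosomal neighbors, were named after their values were seen. Alternatives were RLE and upper quartile scaling, no filter, DESeq2 1.42.0, a replicate block, leaving out each library and, chosen after seeing the data, library totals alone and both libraries numbered 3 left out.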

Additional observations from a re-analysis of the deposited data

Results flagged for a closer look

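In 91 groups of 4 libraries, 1 library was set against the other 3, and 19 groups had a library far outside the rest, by the size of its gap to the nearest library relative to the whole range (Dixon's 95% critical value). For independent and normally distributed values chance gives about 1 in 20 such groups. These groups share the same 8 libraries and include genes of few counts, so that rate is not a valid benchmark here. LPS replicate 3 stood apart 7 times, vehicle replicate 3 5 times, vehicle replicate 1 4 times, and LPS replicates 1 and 2 and vehicle replicate 2 once each.

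Among the 10 genes, LPS replicate 3 held 51.2 CPM of *Tnfrsf23* (others 13.3 to 17.8) and vehicle replicate 3 held 1.90 CPM of *Tnfrsf22* (others 2.84 to 2.98). LPS replicate 2 held 0.327 CPM of *Ltb* (others 0.162 to 0.187), a matter of a few counts. The log2 ratio of *Tnfrsf1b* to *Tnfrsf1a* was 1.08 in vehicle replicate 1 (others 0.46 to 0.52) and 3.39 in LPS replicate 1 (others 3.95 to 3.99).

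Among the other ligands and receptors, LPS replicate 3 was high for *Tnfrsf26* (133 CPM, others 37.1 to 49.6), *Tnfsf8* (6.39, others 0.653 to 0.974) and *Tnfsf13b* (1.17, others 0.180 to 0.270) and low for *Ltbr* (75.6, others 106 to 111). Vehicle replicate 3 was high for *Tnfsf8* (3.84, others 0.140 to 0.484), *Tnfsf13* (0.983, others 0.450 to 0.525), *Tnfsf15* (2.28, others 0.208 to 0.420) and *Cd40* (15.1, others 5.04 to 6.37). Vehicle replicate 1 was low for *Tnfrsf10b* (0.665, others 0.830 to 0.856) and high for *Ngfr* (2.31, others 0.698 to 0.923), and vehicle replicate 2 was high for *Tnfrsf12a* (7.40, others 5.04 to 5.20). Among the genes of membrane release, LPS replicate 3 was low for *Rhbdf2* (224, others 404 to 417) and high for *Adam10* (215, others 165 to 171), and vehicle replicate 1 was high for *Adam10* (395, others 346 to 351).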

How the results depend on the processing

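Of the 10 genes, 8 were called higher under every alternative run, and *Tnfrsf22* was the only one to lose its call, in 5 of 8 fits that left out a library. Its log2 fold change then ranged from -1.12 to -0.74, and the number of members called lower from 0 to 1. Leaving out a library moved the other ligands called higher between 1 and 2 (2 without vehicle replicate 3) and the other receptors called lower between 2 and 3. Adaptors and kinases moved between 9 and 12 called higher and between 1 and 2 called lower, and restraints between 7 and 9 called higher. The replicate block, which treats equal numbers as pairs, gave 2 other ligands called higher, as did leaving out both libraries numbered 3 (2, chosen after seeing the data), and beyond *Tnfsf8* and *Timp3* it changed no call among the genes of these lists. One adaptor or kinase was called lower (1) with DESeq2, 1 with RLE size factors, 1 without the filter and 1 without both libraries numbered 3.

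With library totals alone, also chosen after seeing the data, the median of all genes moved by -0.68 (upper quartile, -0.16) and 1988 genes were higher and 8457 lower, against 4191 and 4686. In that setting 4 other ligands and 6 other receptors were lower, 6 adaptors and kinases were higher and 12 lower, 2 restraints were lower and 1 gene of membrane release was higher. *Tnfrsf11a* (-0.48) and *Frmd8* (-0.02) turned negative.

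The ratios kept their direction without each library, at 3.13 to 3.34 for *Tnfrsf1b* to *Tnfrsf1a*, 3.35 to 3.77 for *Tnfrsf23* to *Tnfrsf22*, 1.49 to 2.00 for *Lta* to *Tnf*, where the added 0.5 sets most of the vehicle value, and -4.34 to -3.35 for *Ltb* to *Tnf*. Such fits have too few divisions to stay under 0.05 throughout (adjusted p up to 0.0571, exact permutation). Sign flips within pairs, a replicate block for the values 3.19, 3.57, 1.74 and -3.74, cannot go below an exact p of 0.125. Depth limits *Ltb* and the vehicle level of *Lta*, with 21 and 2 counts in all vehicle libraries.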
